A study of Mus musculus with 2 samples.

Results

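Syndecans and glypicans are the main families of cell-surface proteoglycans that carry heparan sulfate, a long sulfated sugar chain. They were picked by the gene name printed on the array, and all 10 genes sought (Sdc1 to Sdc4 and Gpc1 to Gpc6) were present among 24323 named genes. RNA came from the tooth and from the skin of wild-type mice at postnatal day 0 as labelled (the study's methods give a later day), and each tissue was hybridised to 1 single-dye Agilent array on a shared slide. The study used C57BL/6J mice as wild type, and how many animals gave RNA to each array, and of which sex, is not stated in the sources used here. Because each tissue had 1 array, no difference could be tested and none has a replicate check.

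Syndecans cross the membrane and end in a short cytoplasmic tail that binds adaptor proteins, whereas glypicans are held at the outer surface by a lipid anchor. Through their heparan sulfate chains both families bind growth factors of the FGF, Wnt, Hedgehog and BMP families and alter how these reach their receptors. In the developing tooth, Sdc1 is known from the condensing dental mesenchyme and the epithelium, and in the skin from the keratinocytes. Chains are built on a linker sugar, lengthened by exostosins, sulfated in several positions, and later trimmed outside the cell by sulfatases and heparanase.

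The tissues carried the defining markers of their labels. All 4 ameloblast markers (Amelx, Ambn, Enam and Mmp20) were well above background in tooth and not in skin, and all 4 markers of cornified epidermis (Krt1, Krt10, Lor and Flg) were more than 2-fold higher in skin, between 8.39 and 12.89 on the log2 scale. The scanner software called 56.7% of the 55675 probes well above background in tooth and 52.5% in skin. Signals below are log2 intensities relative to the 75th percentile of the array, which was 428 in tooth and 276 in skin, and each difference is skin minus tooth. A change of scale to the spike-in transcripts lowers every difference by about 0.62 (log2), so small differences are read relative to that choice. Spots of 1 probe on 1 array differed by a median SD of 0.08 in tooth and 0.09 in skin, which gives a difference between arrays an SD of 0.12 from spot scatter alone. Every member probe had 1 spot, and probes of different genes bind with different strength, so levels of different members were not compared.

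The probes of the genes at least 2-fold apart are shown by their last 30 bases (positions 31 to 60 of 60, 5′ to 3′, as given in the array file), together with both Gpc4 probes, which disagreed. Capitals mark a unit of 1 to 4 bases that is repeated without a break over at least 8 bases. Positions are in mm9, the build of the array file, and the exon or intron under each probe was not analysed here.
Sdc2, chr15:32964204-32964263: attacagctgtaattcaccatgttaaaagg
Sdc3, chr4:130382015-130382074: ggaggagagggtcagatggataaagataaa
Sdc4, chr2:164251211-164251270: accagtttagatcctgtagtaaacatgtcc
Gpc2, chr5:138715328-138715387: tcataatatttattttttcatttgggaact
Gpc6, chr14:118375311-118375370: aacaagtcaagacaaaaaGAGAGAGAggat
Gpc4 first probe, chrX:49406560-49406619: acaacaatgtacagtttttactgtgtggcc
Gpc4 second probe, chrX:49406100-49406159: ttgggttttcttcCTTTCTTTCTTTctctc
Such a repeat was found in 2 of the 13 member probes, the Gpc6 probe and the second Gpc4 probe, against 4.77% of all 55681 probes on the array.

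All 10 members were well above background in tooth, and 8 of them were so in skin. Of the 10, 4 were at least 2-fold higher in tooth (Sdc2, Sdc3, Gpc2 and Gpc6), against 15.5% of the 17409 named genes counted the same way, and 1 was at least 2-fold higher in skin (Sdc4), against 14.2%. The other 5 lay within 2-fold. The median difference of the members was -0.71, and that of all genes counted was -0.04, with quartiles of -0.58 and 0.47. With scaling to the spike-in transcripts, the counts were 7 in tooth and 0 in skin, while over all genes they moved from 2691 and 2466 to 5639 and 1573. With a signal above background required on both arrays, the member counts were 2 and 1, beside 1883 and 1745 of 15271 genes. A different background correction (normexp, described below) also gave 2 and 1, beside 1665 and 1743 of 17409 genes. Since these are whole tissues, fewer cells of a type and less RNA per cell cannot be told apart.

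**Figure D1:**
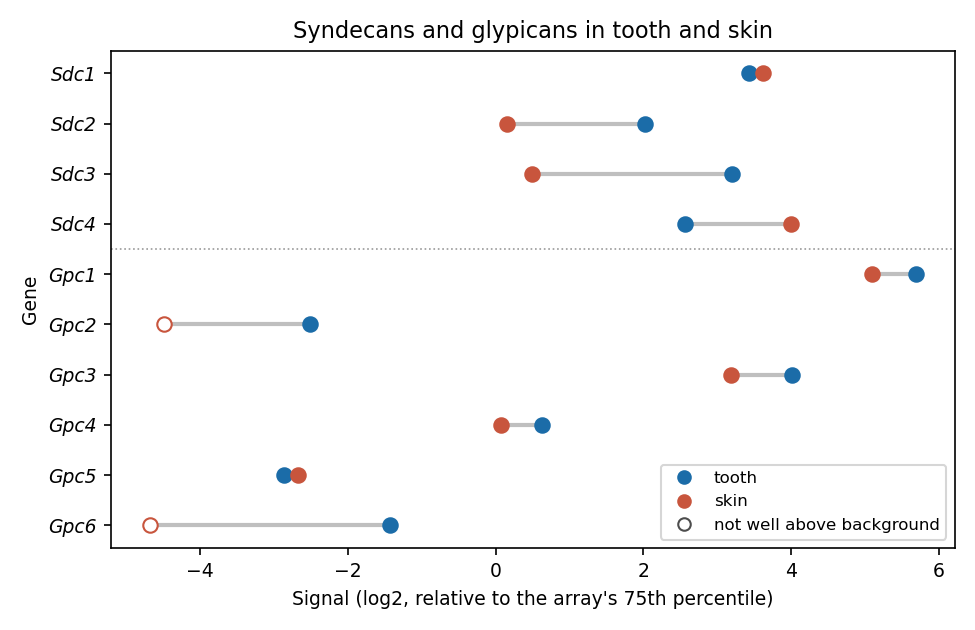
Signal of each member on the tooth array (blue) and the skin array (red), as log2 relative to the 75th percentile of the array, with 1 array per tissue and no error bar. Open circles mark signals not well above background, which were those of Gpc2 and Gpc6 in skin. The gaps of Sdc2, Sdc3 and Sdc4 are wide, as are those drawn for Gpc2 and Gpc6, whose skin ends are not exact. Those of Sdc1 and Gpc5 are 0.18. Heights of different genes are not comparable.

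The syndecans diverged between the tissues. Sdc3, the syndecan best known from nerve cells and from muscle precursors, had a processed intensity of 3928 in tooth and 388 in skin. On the scaled log2 axis the tooth value was 3.20 and the skin value 0.49 (-2.71), a 6.54-fold gap. Among all genes counted, 3.42% had a difference below this one. Sdc2, a syndecan typical of mesenchymal cells, was at 2.03 in tooth and 0.15 in skin, with intensities of 1742 and 306. It was 3.67-fold higher in tooth (-1.88, percentile 6.98 of all genes).

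Sdc4, a component of focal adhesions that is found in most adherent cells, went the other way. Its intensity was 2528 in tooth and 4432 in skin, and its scaled level was 2.56 in tooth and 4.0 in skin. The difference of 1.44 made it 2.72-fold higher in skin, at percentile 89.8 of all genes. Under spike-in scaling it was still higher in skin, by 0.82, which is less than 2-fold.

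Sdc1, the main syndecan of epithelia, was nearly level between the tissues. Its tooth value was 3.43 and its skin value 3.62, and the difference of 0.18 turned to -0.44 under spike-in scaling and to -0.06 under a median shift. The markers of basal epithelium (Krt5, Krt14, Trp63, Cdh1 and Epcam) were all higher in skin on the main scale, by 0.06 to 1.19, but 3 of 5 under spike-in scaling. Their summed linear signal was 551 in tooth and 1061 in skin, and these sums mostly followed Krt5 (0.94). The part of these epithelial cells in the value of Sdc1 was not tested.

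**Figure D2:**
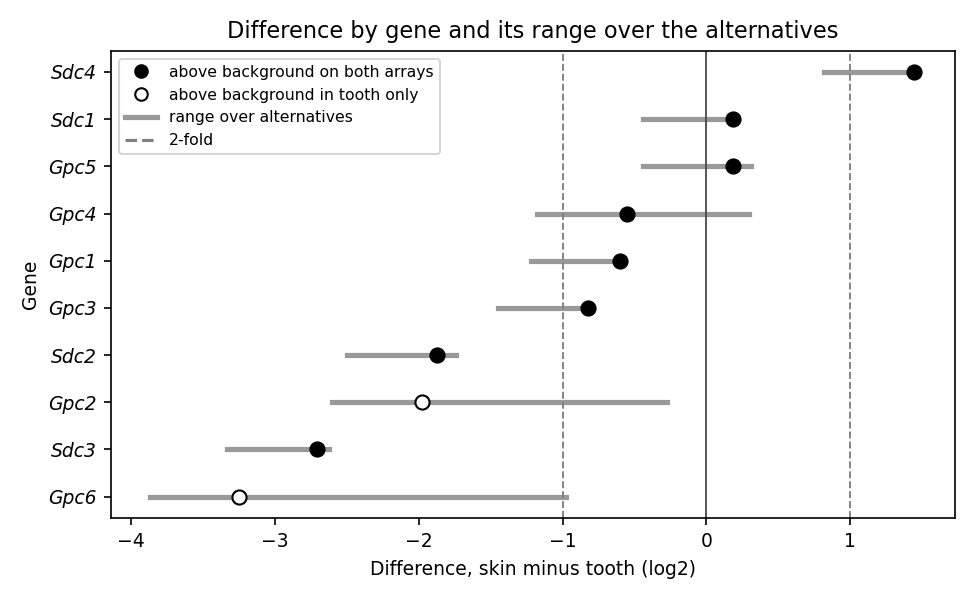
Difference between skin and tooth for each member (points, log2) with its range over the alternative settings (grey bars), 1 array per tissue. Open points mark genes not well above background in skin, and dashed lines mark 2-fold. The bars of Sdc2 and Sdc3 stay beyond 2-fold toward tooth, whereas those of Sdc1, Gpc4 and Gpc5 cross 0.

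The upstream sequence of the syndecans is shown for those with an entry in the RefSeq promoter table (build GRCm38.p6), because Sdc3 and Sdc4 differed in opposite directions and Sdc1 was level. An entry was found for 7 of the 10 members. The last 120 bases before the annotated start are printed 5′ to 3′ on the strand of the gene. Capitals mark the GC box, GGGCGG or its complement CCGCCC, and TATAA where it lies between positions -40 and -20 on the strand of the gene. The Sdc1 stretch opens inside a GC box, whose first base is cut off. Both motifs were chosen after the sequences had been seen.
Sdc1, chr12:8771276-8771395, plus strand: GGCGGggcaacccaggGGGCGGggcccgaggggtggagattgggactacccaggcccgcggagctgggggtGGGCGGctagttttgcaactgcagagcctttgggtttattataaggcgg
Sdc3, chr4:130792417-130792536, plus strand: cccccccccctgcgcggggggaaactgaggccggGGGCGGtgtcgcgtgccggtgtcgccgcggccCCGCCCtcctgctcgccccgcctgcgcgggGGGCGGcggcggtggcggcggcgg
Sdc4, chr2:164443189-164443308, minus strand: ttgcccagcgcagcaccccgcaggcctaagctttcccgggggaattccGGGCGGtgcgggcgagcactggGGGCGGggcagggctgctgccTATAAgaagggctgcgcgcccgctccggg
In the 250 bases before the start, Sdc3 held 3 GC boxes and 32 CpG pairs, Sdc4 held 4 and 19, and Sdc1 held 3 and 10. The median over all 32851 promoters of the table was 6 CpG pairs. A GC box was found in all 7 member promoters and in 32.7% of all promoters, and the TATAA in that window in Sdc4 and in 3.31% of all promoters. The other members with an entry were Gpc2, Gpc3, Gpc4 and Gpc5.

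Among the glypicans 5 of 6 had the higher signal in tooth by their brightest probe, beside 52.4% of all genes. With spike-in scaling 6 of 6 did so, beside 79.4% of all genes. The 5 include Gpc4, for which a second probe gave the other direction. Gpc6, a glypican of the growing skeleton, was at -1.43 in tooth with an intensity of 158. In skin it had an intensity of 10.8 and was not well above background. It was at least 4.91-fold higher in tooth. Gpc2, known as cerebroglycan and typical of developing nerve cells, had an intensity of 75.3 in tooth and 12.3 in skin, where it was not well above background. It was at least 2.34-fold higher in tooth. Both signals in skin passed the more lenient call of signal significantly above background. With normexp background correction, which adds an offset of 50 to each intensity, their differences were -0.98 and -0.27. Both are smaller than the fold bounds above, which hold only for the main background correction.

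The remaining glypicans were measured on both arrays and lay within 2-fold, although Gpc1, Gpc3 and Gpc4 passed it toward tooth with spike-in scaling. Gpc1, a widely found glypican, had intensities of 22170.5 and 9450 and scaled levels of 5.70 in tooth and 5.10 in skin (-0.60). Gpc3, a restrainer of body growth, was at 4.01 in tooth and 3.19 in skin (-0.82). Its other probe, drawn from a single cDNA clone, was not above background on either array even by the lenient call.

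Gpc4, first described from kidney, was at 0.63 in tooth and 0.07 in skin by its brighter probe (-0.56). Its second probe, which holds the repeat printed above, gave -3.25 and -2.96, a difference of 0.30 in the other direction. The gap of 0.85 between these probes is wide, as the median gap for the 3241 genes with 2 probes measured on both arrays was 0.26 and the 90th percentile 0.94. The direction of Gpc4 was therefore not settled by the array.

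Gpc5, a glypican of brain and limb, was dim in both tissues, at -2.86 in tooth and -2.67 in skin. The difference of 0.18 was close to the spot scatter, and it turned to -0.44 under spike-in scaling, -0.07 under a median shift and -0.03 under quantile normalization. The other Gpc5 probe gave no signal well above background.

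Markers of other cell types moved between the tissues as well, and their part in the values of the members was not tested. Of 4 nerve-cell markers, Tubb3 (-3.17) was at least 2-fold higher in tooth, Snap25 was level (0.05), Rbfox3 was higher there by at least 9.60-fold, and Elavl3 was not above background in either. Their summed linear signal was 50.1 in tooth and 32.1 in skin. Of 5 skeletal muscle markers, 4 were at least 2-fold higher in skin, with sums of 3.64 in tooth and 28.4 in skin, but Pax7, the defining marker of muscle precursors, was not above background in either. All 5 markers of odontoblasts and bone were at least 2-fold higher in tooth, with sums of 343 in tooth and 0.65 in skin. Of 4 Schwann cell markers, Sox10 was higher in skin (3.21) and Mbp in tooth (-1.02), with sums of 8.38 and 6.67. Of 4 cartilage markers, Col2a1 reached a signal well above background in tooth alone, Acan was higher in tooth (-1.36), the Col9a1 probes disagreed (0.70 for the brighter and -2.62 for the dimmer), and Matn1 was at background. Their sums were 3.71 and 0.35. Hair follicle, fat and melanocyte markers were all at least 2-fold higher in skin, with sums of 2.17 and 638, 0.66 and 13.1, and 2.22 and 165. Of 4 endothelial markers, 2 were at least 2-fold higher in tooth, Cdh5 (-2.70) and Tek (at least 2.77-fold), and none in skin, while the sums of 30.6 and 38.1 followed Kdr (0.43, and -2.19 by its dimmer probe). Of 4 macrophage markers, 2 were at least 2-fold higher in tooth and none in skin, with sums of 26.4 and 17.1.

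**Figure D3:**
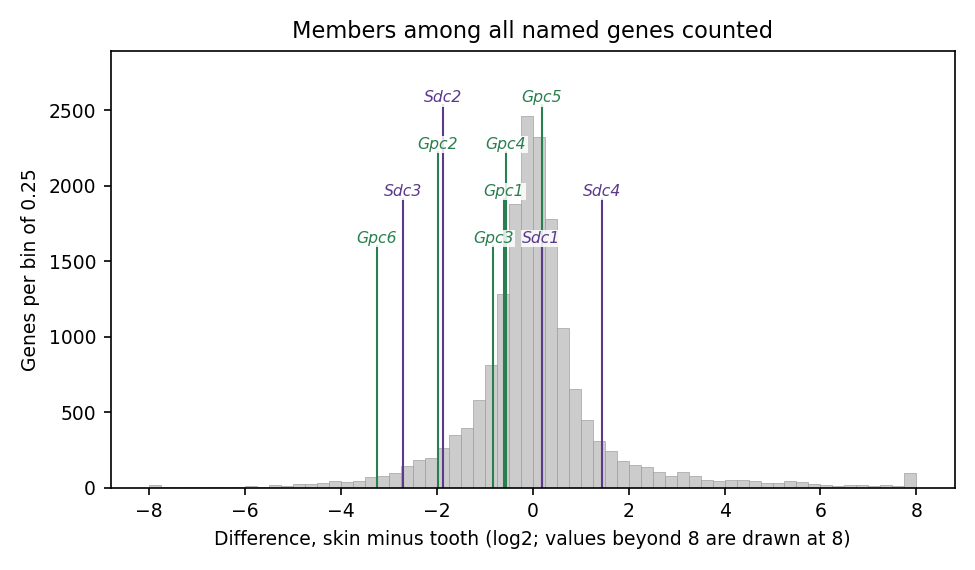
Differences between skin and tooth (log2) of the 17409 named genes counted, in bins of 0.25, with vertical lines for the 4 syndecans (purple) and the 6 glypicans (green). Line heights only separate the names. Sdc3 lies in the lower tail, at percentile 3.42, and Sdc4 at percentile 89.8. The lines of Gpc2 and Gpc6 stand at measured values whose skin signal was not well above background, so their place is not exact.

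The genes that build, edit and bind heparan sulfate were then examined, 46 genes in all, to place the members among the machinery that acts on them. Of these, 41 had a signal well above background in at least 1 tissue, and by measured value 8 (19.5%) were at least 2-fold higher in tooth and 4 (9.76%) in skin, beside 15.5% and 14.2% of all genes. Of the 8, however, 3 were not well above background in skin and had bounds under 2-fold or none, and with dim values at their bound the count in tooth was 5 (12.2%), beside 13.3% of all genes. The median difference was -0.34. With scaling to the spike-in transcripts the counts were 20 (48.8%) in tooth and 3 in skin. Beside them, 5639 (32.4%) and 1573 of all 17409 genes passed 2-fold on that scale.

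In the editing group, Sulf1, a sulfatase that removes 6-O-sulfate from finished chains outside the cell, was at 3.96 in tooth and -0.14 in skin. This difference of -4.10 made it 17.2-fold higher in tooth, and the other probe of Sulf1 gave -5.15. Sulf2, its close relative, was at 1.55 in tooth and 2.5 in skin, 0.96 higher in skin and just within 2-fold, with intensities of 1249.8 and 1565. The pair of sulfatases thus had opposite signs, and the sign of Sulf2 was kept under spike-in scaling (0.33). The remaining 3 genes of the group, the heparanase genes Hpse and Hpse2 and the Wnt-inactivating esterase Notum, lay within 2-fold. Under spike-in scaling 3 of the 5 genes of the group passed 2-fold toward tooth, beside 32.4% of all genes.

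Among the exostosins, Ext1 (-0.41) and Ext2 (-0.94), which form the chain polymerase, were within 2-fold. The other probe of Ext1 gave 1.22. Extl2 (-1.12), which acts on the linker region, was 2.17-fold higher in tooth (-0.98 under normexp correction), and Extl3 (-0.13), which starts the chain, was level. Extl1, a further exostosin-like transferase, was at -3.14 in tooth and 0.86 in skin, 4.0 apart and thus 16.0-fold higher in skin. Its tooth signal was dim (intensity 48.5), and under normexp correction the difference was 2.83. The differences of the 6 linker genes ran from -0.87 to 0.65, within 2-fold, and the dimmer probe of B4galt7 gave -1.11. Under spike-in scaling 3 of the 6 passed 2-fold toward tooth, beside 32.4% of all genes.

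Of 16 genes for sulfation, 12 were counted. By measured value 5 (41.7%) were at least 2-fold higher in tooth and 2 (16.7%) in skin, beside 15.5% and 14.2% of all genes. With dim values at their bound, 2 were so in tooth and 2 in skin, beside 2316 and 2435 of all 17409 genes. Under normexp correction the counts were 1 and 1, beside 1665 and 1743. The 6-O-sulfotransferases Hs6st1 (-1.45) and Hs6st2 (-1.64) were 2.74-fold and 3.12-fold higher in tooth, although Hs6st2 was within 2-fold under normexp correction (-0.80). Hs3st6, a 3-O-sulfotransferase, was at 1.13 in tooth and 3.43 in skin, 4.92-fold higher in skin. Ndst3, which replaces acetyl groups with sulfate, was 2.41-fold higher in skin (1.27), at low levels of -3.96 and -2.69. It was within 2-fold under spike-in scaling (0.64) and normexp correction (0.70).

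A further 3 sulfotransferase genes, more than 2-fold apart by their measured values, were well above background in tooth only, so that 2-fold was not shown for them. The tooth value exceeded that of skin at least 1.53-fold for Hs3st2 and at least 1.14-fold for Hs3st3a1, and Hs3st4 was too dim in tooth to give a bound. Under normexp correction the difference of Hs3st2 was -0.15, and the signs of Hs3st3a1 (0.05) and Hs3st4 (0.28) changed. These bounds therefore hold only for the main background correction.

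The other heparan sulfate proteoglycans counted (8 of 9), among them the basement membrane proteins Hspg2 (perlecan), Agrn (agrin) and Col18a1, lay between -0.98 and 0.61 by their brightest probes. Under spike-in scaling 4 of the 8 passed 2-fold toward tooth, beside 32.4% of all genes. The dimmer probes of Hspg2 (-1.05) and Col18a1 (-1.04) did so on the main scale. Of the proteins that bind the syndecan tail, Sdcbp2 (syntenin-2) was at -2.87 in tooth and 3.69 in skin (6.56), or 94.6-fold toward skin. Its tooth signal was dim (intensity 58.4), and under normexp correction the difference was 5.34. Its relative Sdcbp (syntenin-1), the better known partner, was at 1.06 and 0.72 (-0.34), and its dimmest detected probe gave 1.01. Prkca, the kinase that binds the tail of Sdc4, was 2.05-fold higher in tooth (-1.04), or -0.88 under normexp correction. By their brightest probes Cask (0.73) and Gipc1 (0.62) were within 2-fold, but the dimmest detected probe of Cask gave 1.07. Gipc1 turned to -0.01 under spike-in scaling.

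**Figure D4:**
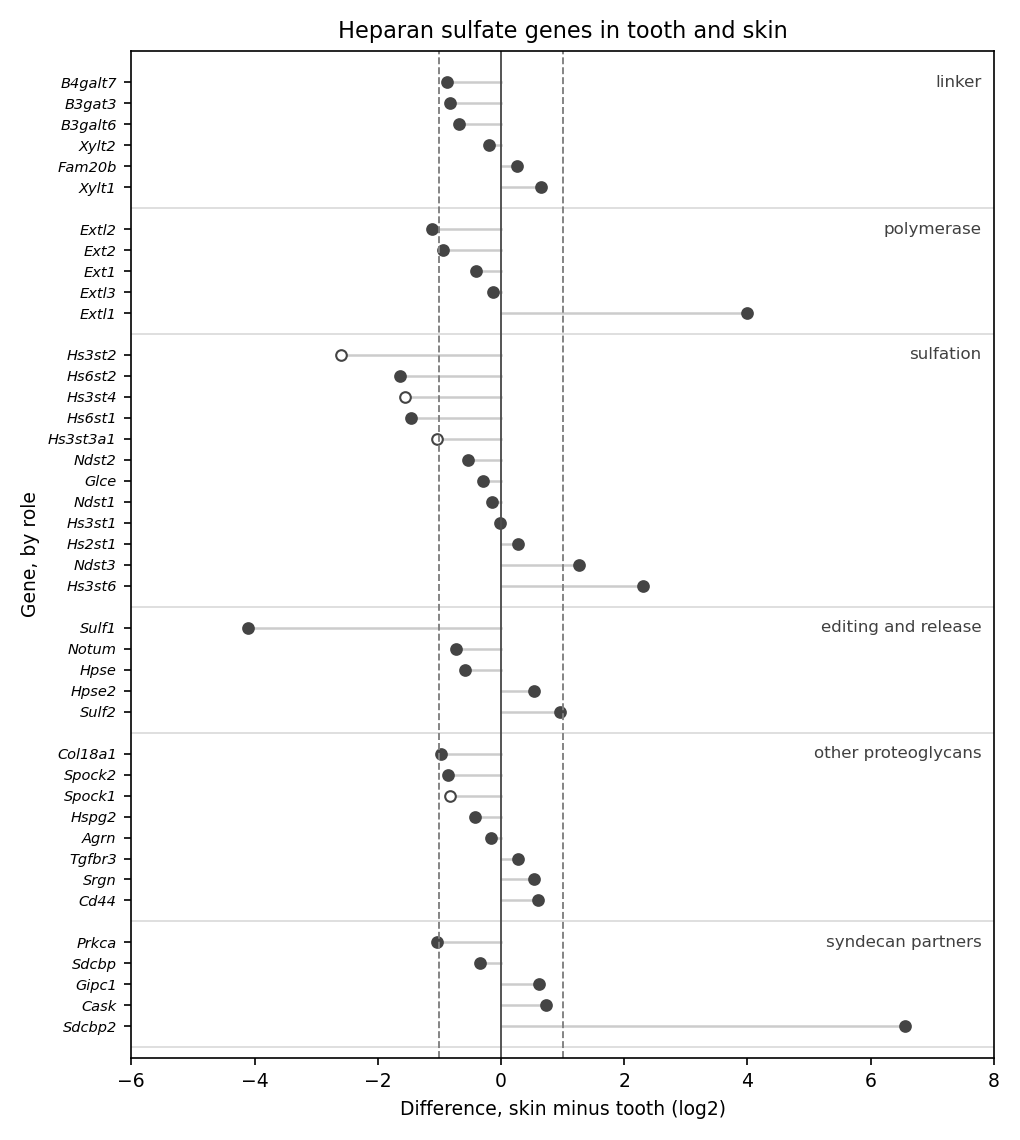
Difference between skin and tooth (log2) for the 41 genes of heparan sulfate assembly, sulfation, editing and binding with a signal well above background in at least 1 tissue, grouped by role, with 1 array per tissue. Open circles mark genes well above background in tooth only, and dashed lines mark 2-fold. Sulf1 stands farthest toward tooth (-4.10), and Sdcbp2 (6.56) and Extl1 (4.0) farthest toward skin.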

How the data were processed

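Total RNA of wild-type tooth and skin was measured, with 1 array for each tissue. Per the file headers, the deposited intensities came from Agilent Feature Extraction (version 10.7.3.1), which had subtracted background, removed trends across the array and substituted values for very dim spots. The authors also deposited a ratio for each spot, equal to the processed intensity divided by 1 factor per array (430.7 for tooth, 274.5 for skin), which served as an alternative. Here outlier spots were dropped, spots of 1 probe were averaged as log2 values, and the 75th percentile over non-control probes was subtracted. A probe was above background when over 50% of its spots carried the software's call. No spot was saturated. The brightest probe by mean over both arrays stood for a gene, and a gene was counted if that probe was above background on at least 1 array. Where 1 array was below it, the fold was a bound. That bound was taken against the lowest signal above background there (-3.73 in skin, log2) or the probe's own signal, whichever was higher. It rests on the main background correction and was not computed for normexp correction. Accessions matched a RefSeq table of GRCm38.p6 for 82.1% of 33182 named probes. The normexp alternative used limma (version 3.58.1). Calculations used Python (version 3.11.15). On simulated data only the scaling and the 2-fold count were checked, not the probe choice, background calls, bounds or alternatives. With 1 array per tissue there was no test and no p-value, and the number of arrays limits the precision.

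The members and the lists were chosen with earlier results of these data known. Every member was named, together with the heparan sulfate genes at least 2-fold apart by measured value (12 genes, of which 9 remain with dim values at their bound), the sulfatases and the exostosins. Other genes of these lists that are mentioned, and the marker genes, were named after their values had been seen.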

Additional observations from a re-analysis of the deposited data

How the results depend on the processing

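No paired analysis was possible because each tissue had 1 array, and for the same reason no array could be left out. Of 10 alternatives, spike-in scaling moved most values. It gave a member median of -1.33, 0 members past 2-fold toward skin and 7 toward tooth, 20 heparan sulfate genes in tooth, and 1573 genes in skin and 5639 in tooth overall. A median shift gave a member median of -0.96 and 14 heparan sulfate genes in tooth, beside 3500 of all 17409 genes. Normexp correction left 2 members, 3 heparan sulfate genes and 1665 genes overall at least 2-fold higher in tooth. Restriction to probes above background on both arrays gave a member median of -0.58, with 2 members and 5 heparan sulfate genes in tooth, as it drops genes dim in skin. Of the 15271 genes it leaves, 1883 were at least 2-fold higher in tooth. Dim values at their bound also gave 5 heparan sulfate genes in tooth, beside 2316 of all genes. The dimmest detected probe gave 7 heparan sulfate genes in skin, beside 2571 of all genes. The scale changes shift every gene by construction, and the cause of the other changes was not tested. Sdc2, Sdc3, Sdc4, Gpc1 and Gpc3 kept their direction under all 10 alternatives, and Gpc2 and Gpc6 under the 9 that count them. The first 5 of these genes had 1 detected probe each, above background on both arrays. Changes of probe choice, filter or bound therefore left their values as they were by construction. Only the changes of scale and of background correction could have altered their direction. Sdc2 ranged from -2.50 to -1.74, Sdc3 from -3.33 to -2.63 and Sdc4 from 0.82 to 1.46. Among single genes, normexp correction turned Hs3st3a1 to 0.051 and Hs3st4 to 0.28, and Hs3st4 was at 0.34 with its dim value at the bound. Over the members and the heparan sulfate genes at least 2-fold apart by measured value, 134 values stayed within the spot scatter of the main value. Another 78 moved further and 3 changed sign from beyond 2-fold. Many of the 134 could not move, because the setting left the probe and signal of the gene as they were. The 78 include the spike-in and median shifts, which move every gene, so these counts do not measure robustness. Signals near background, as of Gpc2 and Gpc6 in skin, give bounds only.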

Other observations

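Glypican genes sit side by side in the mouse genome, Gpc4 next to Gpc3 on chromosome X and Gpc5 next to Gpc6 on chromosome 14, with 0 other protein-coding genes between them in the RefSeq order. On chromosome X, the neighbours 3 genes to each side included Hs6st2, a heparan sulfate sulfotransferase, which was higher in tooth (-1.64). Gpc3 (-0.82), Gpc4 (-0.56 by its brighter probe, direction not settled), Phf6 (-0.48) and Hprt (0.20) all lay within 2-fold. The other 3 neighbours gave no signal well above background. On chromosome 14, Gpc5 was level (0.18) and Gpc6 was above background in tooth only. The gene after Gpc6 is Dct, an enzyme of melanin synthesis, at 0.79 in tooth and 6.89 in skin (6.10). Among the other neighbours 3 genes to each side, Slitrk6 (0.90) and Tgds (-0.55) were measured on both arrays and lay within 2-fold. Gpr180 (-0.53) passed the background call on the tooth array but not on the skin array. Slitrk1 and Slitrk5 passed it on neither array. Neighbouring genes were not compared with genes elsewhere in the genome.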
